A study of Mus musculus with 15 samples.

Results

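Fetal mouse liver lacking the miR-379/miR-410 microRNA cluster was compared with wild-type fetal liver shortly before birth, across all genes measured on the arrays. The comparison used 6 of the 15 arrays of the series: 3 from knockout livers (KO_E19) and 3 from wild-type livers (WT_E19), taken by the sample titles and the labelled genotype and age. All fetuses were C57BL/6J mice delivered by caesarean section late in gestation (E19.5, in embryonic days). KO fetuses carried the deletion on the chromosome inherited from the mother, WT fetuses were littermates without it, and no other allele or treatment is labelled. The deletion was inherited, so no Cre limits it to a cell type, and the positions of its ends are not stated in the labels. Livers were snap-frozen without sorting of cells, so the RNA came from hepatocytes and from the blood-forming and other cells of the fetal liver together, and fewer cells of a type cannot be told apart from less RNA per cell. From each sample 200 ng of total RNA was labelled with Cy3 and hybridised to 1 Agilent array. The remaining 9 arrays, newborn livers of both genotypes at postnatal day 0 (P0), lent their spread to the statistical fit and give a second age for the genes named here.

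MicroRNAs are short RNAs that pair through their seed, bases 2 to 8, with sites in messenger RNAs and lower the output of those messengers. The miR-379/miR-410 cluster lies in the Dlk1-Dio3 imprinted domain and is expressed from the maternal chromosome, from long noncoding transcripts such as Mirg that are processed into the microRNAs. Fetal liver makes blood cells and plasma proteins, and around birth its hepatocytes take up the adult programme of drug, steroid and lipid metabolism.

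The microRNAs themselves were not measured on these arrays, and the sequences that follow show what the cluster encodes. RefSeq (GRCm38.p6) places 36 hairpins from Mir379 to Mir410 on chromosome 12 within 34.736 kb, 35 of them on the plus strand, with 67 mature arms and 60 different seeds. Only 7 seeds are shared, each by a pair of arms, so 14 arms have a partner in the cluster with the same seed. The pairs that include an arm of the end members Mir379 and Mir410, and the pair of the miR-376 family, are shown with the seed in capitals.
mmu-miR-379-5p: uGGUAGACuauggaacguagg
mmu-miR-1193-5p: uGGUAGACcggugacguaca
mmu-miR-379-3p: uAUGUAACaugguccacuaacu
mmu-miR-411-3p: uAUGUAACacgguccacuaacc
mmu-miR-494-5p: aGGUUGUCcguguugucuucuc
mmu-miR-410-5p: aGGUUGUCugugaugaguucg
mmu-miR-376b-5p: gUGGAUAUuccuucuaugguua
mmu-miR-376c-5p: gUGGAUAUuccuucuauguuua

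Levels are log2 fluorescence signals relative to the 75th percentile of the array, so 0 stands for that percentile. Signal strength differed between the genotypes: the 75th percentile lay between 8.44 and 8.57 (log2) on the WT arrays and between 8.81 and 9.05 on the KO arrays, and this scaling removes the mean shift. A gene passed when its adjusted p (limma, Benjamini-Hochberg over 22638 genes or named transcripts) was under 0.05. Of these, 8 passed (0.0353%), 3 higher in KO (0.0133%) and 5 lower (0.0221%). A wider set of 628 (2.77%) had an unadjusted p under 0.05, 251 of them higher in KO (1.11%) and 377 lower (1.67%). Every KO array lay above every WT array for 1547 genes (6.83%) and below for 1208 (5.34%), and the median difference of all genes was 0.02. The number of genes that passed depended on the spread taken from the P0 arrays: with the 6 fetal arrays alone 5 passed, 3 of them among the 8, and 1365 had an unadjusted p under 0.05.

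Mirg, which hosts microRNAs of the cluster, was read by a pair of probes, and both are shown because they check the genotype labels. They lie on mm9 at chr12:110979653-110979712 and chr12:110987569-110987628, plus strand. A probe of an unnamed long noncoding transcript between them, at chr12:110986444-110986503, is the third.
Mirg, first probe: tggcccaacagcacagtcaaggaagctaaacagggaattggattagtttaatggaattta
Mirg, last probe: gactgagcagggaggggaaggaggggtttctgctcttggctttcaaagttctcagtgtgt
Noncoding transcript beside Mirg: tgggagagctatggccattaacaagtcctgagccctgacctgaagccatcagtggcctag

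Mirg was 11.2-fold lower in KO fetal liver. Its last probe, the brighter one, read 2.34, 2.19 and 1.88 on the WT arrays and -1.09, -1.42 and -1.51 on the KO arrays. The groups lay far apart and every library matched its genotype label, while the KO signal was still above background on all 3 arrays. The difference was -3.48 (SE 0.28, adjusted p = 0.000168). The first probe read 1.31, 1.46 and 1.14 in WT against -2.11, -2.71 and -2.75 in KO, a difference of -3.83 (SE 0.27, adjusted p = 4.74e-05 over 34408 probes). The transcript labelled above as beside Mirg, whose interval overlaps it, read -0.28, -0.61 and -0.46 in WT and -2.69, -2.70 and -2.22 in KO. Its groups did not overlap, and it fell by 2.09 (SE 0.24, adjusted p = 0.00581). Other probes of the same transcript differed by -3.01 and -1.61. With array brightness as a covariate the Mirg difference was -2.84 and missed the threshold (adjusted p = 0.0504).

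The domain's probes that fell all lay in a short stretch. The array carried 119 probes from Dlk1 to Dio3, and 69 were kept after the filter on dim probes. Over all 34408 probes, 13 passed with lower signal in KO (0.0378%), and 8 of those were among the 17 probes lying between the outermost Mirg probes, a span of 7.976 kb. All 17 differences in that span were negative, from -3.83 to -0.42 with a median of -2.09, and 16 had an unadjusted p under 0.05. Probes of both strands were among them: the minus-strand probe at mm9 chr12:110983154-110983213 was not well above background in KO, with -4.35 as its mean level in WT and -7.39 in KO (adjusted p = 0.00123). The same span held 12 probes that passed lower in KO at P0.

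**Figure D1:**
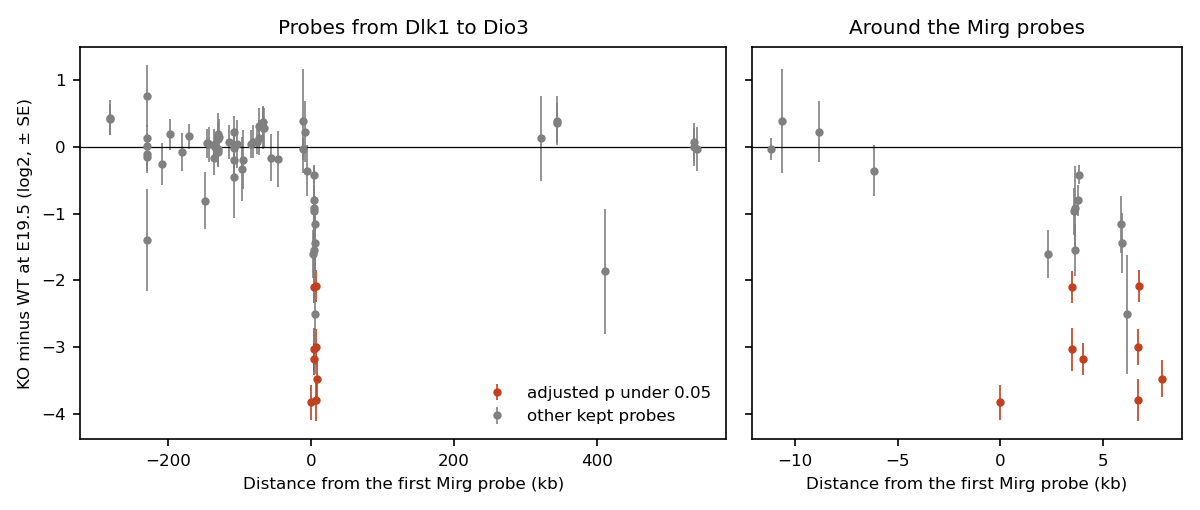
Difference between KO and WT fetal liver (log2, with its SE) for the 69 probes from Dlk1 to Dio3 against the distance in kb from the first Mirg probe, with the surroundings of the Mirg probes enlarged on the right. The 17 probes between the outermost Mirg probes all lie below 0, with a median of -2.09, and the probes on either side scatter around 0.

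On the Dlk1 side, 45 probes had a median difference of 0.04, and on the Dio3 side 7 probes had a median of 0.07, and on neither side did any probe pass or have an unadjusted p under 0.05. The microRNA positions (GRCm38.p6) and the probe positions (mm9) are on different genome builds and were not converted. Which of the domain's probes lie within the cluster was therefore not determined. The last kept probe before the span ended at position 110973542 and differed by -0.36. Of the protein-coding neighbours, Dlk1, a membrane protein of hepatoblasts and other progenitors, differed by 0.41, and Dio3, the deiodinase that inactivates thyroid hormone, by -0.03. The maternally expressed noncoding RNA Meg3 differed by 0.16 and Begain by -0.18. Of 11 measured genes of the domain list Mirg alone passed. 6430411K18Rik was well above background on 2 WT arrays and on no KO array, and it was 1.75-fold lower in KO by the measured values (unadjusted p = 0.0775, limma).

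The 3 coding genes that fell in fetal KO liver are enzymes of mature hepatocytes: Cyp2e1, a cytochrome P450 that oxidises ethanol and other small molecules, Hsd17b6, a hydroxysteroid dehydrogenase, and Acnat2, an acyltransferase that joins fatty acyl groups to amino acids in peroxisomes. They lie on chromosomes 7, 10 and 4. Cyp2e1 was the brightest of the passing genes. Its level was 6.09, 6.01 and 6.52 on the WT arrays and 4.33, 4.63 and 4.41 on the KO arrays. The highest KO value was thus well under the lowest WT value, and the gene fell by 1.75 (SE 0.21, adjusted p = 0.00802), a 3.36-fold difference. It differed by -1.76 on slide 1, which compares KO_E19 1 with WT_E19 1 alone, and by -1.75 on slide 2. At P0, where 7.03% of genes passed, its WT arrays lay between 7.06 and 7.67 and its KO arrays between 4.11 and 4.88. The KO difference at P0 was -2.94 (adjusted p = 4.87e-06). The KO arrays of both ages thus lay in nearly the same range, and the WT arrays were higher at P0. The change of the effect with age, -1.19, did not pass (adjusted p = 0.217).

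Hsd17b6 had levels of 0.61, 0.38 and 1.13 in WT and of -0.81, -1.36 and -1.20 in KO. All KO arrays were low and the groups did not overlap, and Hsd17b6 fell by 1.83 (SE 0.23, adjusted p = 0.00843). Its difference was -1.43 on slide 1 and -2.04 on slide 2. Its difference at P0, -1.86 (adjusted p = 0.000598), was close to the fetal one, with a change between the ages of -0.03 (adjusted p = 0.985).

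Acnat2 had levels of 0.44, 0.75 and 0.64 in WT and of -0.81, -0.98 and -1.43 in KO. The groups did not overlap, and Acnat2 fell by 1.68 (SE 0.24, adjusted p = 0.0191), with -1.24 on slide 1 and -1.91 on slide 2. With slide as a block it no longer passed (adjusted p = 0.0757). At P0 it differed by -2.32 (adjusted p = 0.000124). The call for Acnat2 was the least firm of the 3, since leaving out any 1 of the 6 fetal arrays raised its adjusted p to between 0.0503 and 0.158. Cyp2e1 missed the threshold without KO_E19 1 (0.0547) or KO_E19 3 (0.073), and Hsd17b6 without KO_E19 3 (0.0781). With the 6 fetal arrays alone none of the 3 passed (adjusted p 0.0993, 0.258 and 0.174 for Cyp2e1, Hsd17b6 and Acnat2), and the sizes of the differences were the same.

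**Figure D2:**
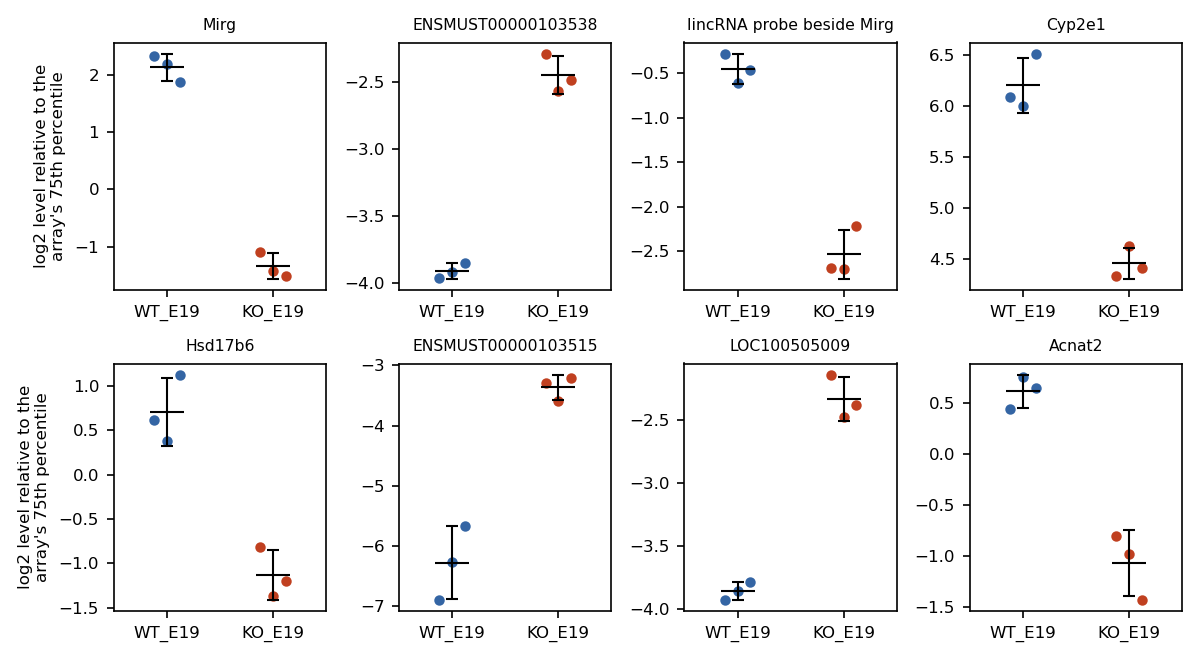
Levels on each array (log2 relative to the array's 75th percentile) of the 8 transcripts that passed between KO and WT fetal liver, with the mean and SD of each group of 3 arrays. In each panel the groups do not overlap, with 5 transcripts lower and 3 higher in KO, and each panel has its own axis.

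Upstream sequences of Cyp2e1 and Acnat2 are shown because these genes fell together, on the strand of the gene and ending at the base before the start site. RefSeq (GRCm38.p6) gives 1 start site for Cyp2e1, with the upstream bases at chr7:140763569-140763818 on the plus strand. For Acnat2, which has 2 start sites, the sequence is that of the first, at chr4:49408152-49408401 on the minus strand. Capitals mark the motif matches.
Cyp2e1: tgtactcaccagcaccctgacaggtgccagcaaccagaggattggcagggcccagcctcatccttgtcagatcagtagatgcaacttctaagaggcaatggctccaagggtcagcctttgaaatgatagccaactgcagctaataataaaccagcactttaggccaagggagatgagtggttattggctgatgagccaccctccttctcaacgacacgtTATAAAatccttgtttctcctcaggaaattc
Acnat2: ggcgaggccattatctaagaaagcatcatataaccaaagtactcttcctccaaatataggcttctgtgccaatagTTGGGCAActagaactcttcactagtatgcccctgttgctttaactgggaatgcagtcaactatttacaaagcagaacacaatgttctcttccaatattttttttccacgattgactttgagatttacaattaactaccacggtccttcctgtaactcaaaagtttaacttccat

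Both strands of the 300 bases around each start site, which include 50 bases after it, were searched for the letters GTTAATNAT (HNF1), CAAAGTCCA (HNF4), TTGCNNAA (CEBP) and TATAAA (the core of a TATA box). The TATA letters stood at -31 to -26 of Cyp2e1, and 13.6% of 32851 promoters of this length hold them. The CEBP letters stood on the minus strand at -175 to -168 of Acnat2, and 10.8% of promoters hold them. No other match was found in these windows or in those of Hsd17b6, and HNF1 and HNF4 letters are in 0.801% and 0.475% of promoters.

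Next in order of p on the lower side, without passing, came Ces3a and Ces3b, carboxylesterase genes that neighbour each other on chromosome 8 and whose enzymes hydrolyse esters and lipids. Ces3a read 4.37, 4.76 and 4.94 in WT and 3.15, 2.93 and 3.32 in KO. Ces3b read 1.19, 1.26 and 1.54 in WT and -0.36, -0.57 and 0.13 in KO. Neither pair of groups overlapped, and the differences of -1.56 and -1.60 had adjusted p-values of 0.154 and 0.195. Both genes passed at P0, with -1.59 (adjusted p = 0.00243) and -1.87 (adjusted p = 0.00156).

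The P450 gene Cyp2j8 differed by -0.80 at E19.5 and -1.26 at P0, the calmodulin-like gene Calml4 by -0.62 and -1.28, the complement protease gene C1ra by -0.57 and -0.69 and the matrix protein gene Thbs4 by -1.47 and -1.32. These 4 passed at P0 and not at E19.5, where their adjusted p-values lay between 0.535 and 0.654. For others the sign was not shared: Serpina1c, an antitrypsin gene with near-identical paralogs, differed by -0.44 at E19.5 and 0.27 at P0, and the alpha-globin gene Hba-a1 by -0.49 and 0.31. Both are among the brightest genes. Their unscaled fetal differences were -0.02 and -0.07, and with quantile normalization the scaled ones were -0.03 and 0.00. Array brightness itself differed between the genotypes, and its part in these values was not tested. Nanog, a pluripotency factor gene with pseudogene copies, differed by -0.64 and 0.20, and Tbc1d12 by -0.62 and 0.08. Ggt6 was negative at both ages (-0.78 and -0.45) and passed at neither.

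On the higher side no protein-coding gene with a symbol passed. Shbg, which encodes the plasma carrier of sex steroids, had means of -1.09 ± 0.22 (SD, n = 3) in WT and 0.47 ± 0.46 (n = 3) in KO, a difference of 1.56 (adjusted p = 0.273). Miox, the first enzyme of myo-inositol breakdown, read 3.08, 3.10 and 3.14 in WT and 4.25, 4.19 and 4.00 in KO. Its groups were each tight and did not overlap, and the difference of 1.04 had an adjusted p of 0.331. Marco, a scavenger receptor of macrophages, read 5.85, 6.02 and 5.76 in WT and 6.63, 6.35 and 6.37 in KO, a difference of 0.57 (adjusted p = 0.603). Marco passed at P0 (0.49, adjusted p = 0.0243), as did the glucuronosyltransferase family gene Ugt3a1, with 0.66 at E19.5 and 0.76 at P0 (adjusted p = 0.0119 at P0).

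The remaining genes of this group had values without a call at either age. Tnnc1, a troponin C of heart and slow muscle, differed by 0.99, Iqca by 0.79, Trim16 by 0.77, Bmp6, a ligand that signals iron stores, by 0.75, Slfn4, a gene of myeloid cells, by 0.71, and Vipr2, a receptor for vasoactive intestinal peptide, by 0.58. Nxf3 and Rpl39l were not well above background on any WT array, and their KO levels were 2.03-fold and 2.91-fold higher by the measured values. Under other processing settings their log2 differences went down to -0.09 and 0.02, those of Trim16 to -0.06, Vipr2 to 0.08 and Bmp6 to 0.13. At P0 the differences of Iqca (-0.28), Trim16 (-0.19), Vipr2 (-0.18) and Slfn4 (-0.0007) were negative. Those of Tnnc1 (0.25), Bmp6 (0.25), Nxf3 (0.20) and Rpl39l (0.40) were positive.

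The 3 transcripts that rose all came from the immunoglobulin heavy chain interval near the end of chromosome 12, several megabases beyond the deleted cluster. This interval holds the variable, diversity, joining and constant segments that B cells recombine into antibody heavy chain genes. The probes are shown because their targets are members of a repeated family. They lie on mm9 at chr12:116842179-116842238, chr12:116153003-116153062 and chr12:117247846-117247905, minus strand.
ENSMUST00000103538: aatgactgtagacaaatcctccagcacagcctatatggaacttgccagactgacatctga
ENSMUST00000103515: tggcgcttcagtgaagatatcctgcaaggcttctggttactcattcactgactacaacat
LOC100505009: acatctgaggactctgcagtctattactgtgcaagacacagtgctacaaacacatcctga

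Between each other the 3 probes matched at 20 to 22 of 45 to 59 aligned bases, but other probes of the interval came closer. ENSMUST00000103515 matched ENSMUST00000103507, which differed by 0.90, at 51 of 54 aligned bases. ENSMUST00000103538 matched ENSMUST00000103496, which differed by 1.32, at 50 of 60, and LOC100505009 had no match above 24 of 59. Transcripts of such pairs may share signal. Shorter overlaps and matches outside the probes were not looked for, so LOC100505009 may share signal with other transcripts as well. ENSMUST00000103538 read -3.97, -3.92 and -3.85 in WT and -2.29, -2.57 and -2.49 in KO, and rose by 1.46 (SE 0.17, adjusted p = 0.00581). LOC100505009 read -3.93, -3.86 and -3.79 in WT and -2.14, -2.47 and -2.38 in KO, and rose by 1.53 (SE 0.21, adjusted p = 0.0141, or 0.0567 with slide as a block, which ends the call). All of these levels were low, far under the 75th percentile, and in neither transcript did the groups overlap. ENSMUST00000103515 was not well above background on any WT array (-6.89, -6.26 and -5.67) and read -3.29, -3.59 and -3.20 in KO, 7.53-fold higher by the measured values (adjusted p = 0.0141). At P0 the 3 transcripts differed by -0.11, -0.15 and 0.20 in that order and none passed. The change between the ages did not pass either (adjusted p = 0.118, 0.141 and 0.159). With normexp background correction (offset 50) and the 75th percentile the fetal differences shrank to 0.36, 0.56 and 0.32 and none passed. With the same correction and quantile normalization they were 0.62, 0.83 and 0.66. All 3 then passed in limma (adjusted p = 0.00893, 0.0082 and 0.0377). In the log2 values deposited by the authors the differences were 0.84, 1.05 and 0.89, and all 3 passed. The sizes of these rises thus depended on the processing.

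Across the interval (mm9 chr12:114525496-117247905) 49 transcripts were measured, with a median difference of 0.40 at E19.5 and -0.02 at P0. KO lay above WT without overlap for 21 of them (42.9%, against 6.83% of all genes). The filter kept probes well above background on 3 or more arrays of any group, so dim transcripts could enter through the KO arrays. ENSMUST00000103526 was well above background on 0 WT and 3 KO arrays. In the last step below, ENSMUST00000103547 and ENSMUST00000103550 were so on 1 WT and 3 KO arrays. The 21 are not all separate readings, since 19 of the 38 probes compared had another interval probe at 85% identity or more. The share was larger in each step away from the cluster: by 1-Mb steps it was 7.14% of the 14 transcripts at chr12:114525496-114974388, 35.3% of 17 at chr12:115097549-115984730, 69.2% of 13 at chr12:116118275-116855481 and 100% of 5 at chr12:117100209-117247905. The median difference went from 0.00 to 0.40, 0.76 and 1.64 in the same order. Of 76 genes between Dio3 and the interval 4 had KO above WT, and of 18 genes from the interval to 120 Mb, 2. Chromosome 12 from 110 to 120 Mb, which holds both the cluster and this interval, had 5 of the 8 passing transcripts. Mirg and the noncoding transcript that overlaps it are counted apart here.

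**Figure D3:**
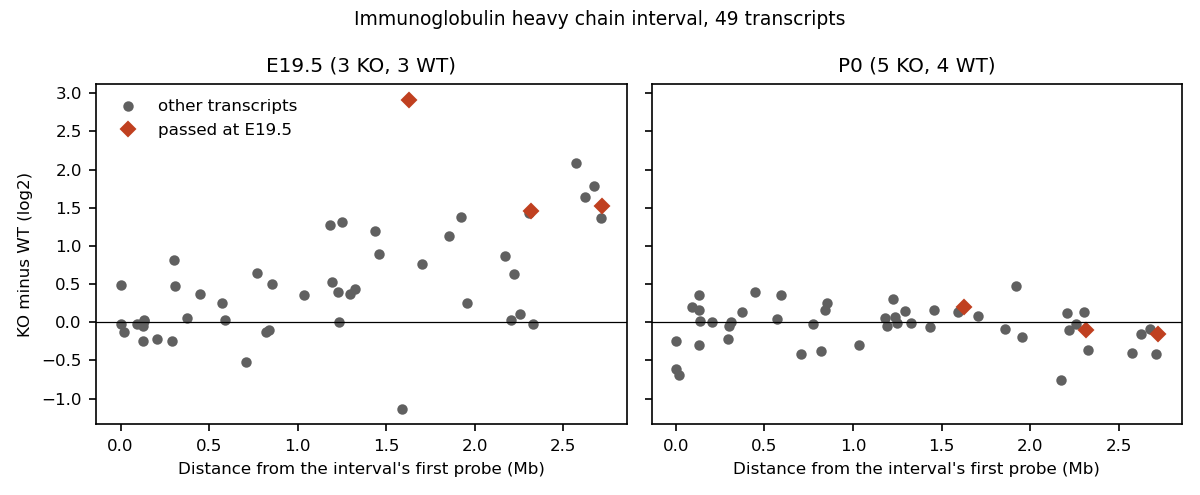
Difference between KO and WT (log2) for the 49 transcripts of the immunoglobulin heavy chain interval at E19.5 and at P0, against the distance in Mb from the first probe of the interval, with the 3 transcripts that passed at E19.5 as diamonds. At E19.5 the values at the far end lie above 0, where all 5 transcripts of the last 1-Mb step have KO above WT, and at P0 the median is -0.02.

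Lists of other B cell transcripts had medians near 0. The 18 measured B cell markers had a median difference of -0.01, and none had KO above WT on every array. The transcript of the heavy chain constant segment Ighm (ENSMUST00000103426) had a mean of 2.04 in WT and 2.06 in KO. The 46 kappa light chain transcripts of chromosome 6 had a median of -0.05, with 1 above and 1 below without overlap and none passing, and 4 had an unadjusted p under 0.05, 1 of them higher and 3 lower in KO.

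Pathway lists were described by how many of their members were separated between the groups. Full separation of 3 against 3 arrays has an exact p of 0.1 by rank order, counting both directions. For each list the count of genes whose KO arrays were all below or all above the WT arrays is given, to be read against 5.34% and 6.83% of all genes. Cytochrome P450 genes of mature liver had 32 measured members, 6 below and 1 above, with a median difference of -0.13. Cyp2e1 alone passed. Cyp2j5 read -2.55, -2.39 and -2.36 in WT and -3.73, -3.86 and -3.81 in KO. Its groups were tight and did not overlap, and the difference of -1.37 had an adjusted p of 0.991 with the spread of all 15 arrays, while it passed with the 6 fetal arrays alone. The fatty acid hydroxylases Cyp4a12a (-1.19) and Cyp4a14 (-1.03) and the lung and liver enzyme Cyp2f2 (-0.94) were also below without overlap.

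Carboxylesterases had 13 members, 5 below (38.5%) and 1 above, with a median of -0.21. Besides Ces3a and Ces3b, Ces1g (-0.56), Ces1c (-0.48) and Ces2a (-0.22) were below, and Ces1e (0.44) was above. None of the 13 passed at E19.5, and the 5 lower members all passed at P0. Of 28 hydroxysteroid and retinol dehydrogenases, the family of Hsd17b6, 4 were below and 1 above with a median of -0.03, and of 25 acyl-CoA thioesterases and acyltransferases, the family of Acnat2, 4 were below and 4 above with a median of 0.03. Acnat1, the neighbour of Acnat2 in that family, differed by -0.60 at E19.5 and passed at P0 (-1.32, adjusted p = 0.0123).

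Genes of bile acid synthesis and transport had 23 members, 8 below (34.8%) and none above, with a median of -0.06, and none passed. The largest differences were those of Abcg5 and Abcg8, the half-transporters that together export sterols into bile. Abcg5 read 2.14, 2.12 and 3.02 in WT and 1.19, 1.26 and 0.48 in KO. WT_E19 3 stood highest and KO_E19 3 lowest, and the difference was -1.45 (adjusted p = 0.679). Abcg8 differed by -1.24. Baat, which conjugates bile acids to amino acids, differed by -0.72, and Slc10a1, the bile salt importer, by -0.28.

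Lipoprotein and lipid droplet genes had 26 members, 8 below (30.8%) and 1 above, with a median of -0.12. Fabp2, a fatty acid-binding protein best known from intestine, read 2.88, 3.37 and 3.37 in WT and 2.43, 2.47 and 2.23 in KO. The groups did not overlap, with a difference of -0.83 at E19.5 (adjusted p = 0.659), and Fabp2 passed at P0 (-1.54, adjusted p = 0.000837). The apolipoprotein gene Apoa4 differed by -1.57 (adjusted p = 1.00). Both genes were also on the list of gut markers. Of its 8 measured members 3 were below (37.5%), the brush border gene Vil1 among them, and the list median was -0.48. Cdx2, the factor that defines intestinal epithelium, was not above background. The part of gut cells in these values was not tested. The list of the insulin-like growth factor (IGF) axis had 21 members, 5 below and none above, with a median of -0.12. Igf1, the circulating growth factor, read 1.48, 1.79 and 1.52 in WT and 1.03, 0.89 and 0.71 in KO. That difference was -0.72 (adjusted p = 1.00), and Igf1 passed at P0 (-0.68, adjusted p = 0.0372). Igfals and Igfbp3, its plasma carriers, differed by -0.40 and -0.30.

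Lists of fuel metabolism had separated genes on the lower side as well. Amino acid catabolism had 6 of 33 members below (18.2%) and mitochondrial fatty acid oxidation 4 of 20 (20%), with none above and medians of -0.08 and -0.05. PPARA targets had 4 of 25 below (16%) and 1 above, with a median of -0.07. Among these Fgf21, a hormone of the fasted liver, read -2.87, -2.47 and -1.65 in WT and -4.40, -3.12 and -7.52 in KO. KO_E19 3 stood far below the other arrays and was not well above background there, and the difference of -2.68 had an adjusted p of 1.00. None of the 32 oxidative phosphorylation, 18 fatty acid synthesis, 18 hypoxia and 15 small RNA pathway genes was separated in either direction, and 1 of 24 cholesterol synthesis genes was below.

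Interferon response genes, which are switched on by type I and II interferons, were the list with the largest share on the higher side. Of 34 measured members 17 had KO above WT without overlap (50%) and 2 below, and 28 differences were positive, with a median of 0.20. The differences were small: 0.49 for Mx1, 0.46 for Ifit2, 0.44 for Ifit3, 0.41 for Ifit1 and 0.39 for Irgm1. None passed, and Irgm1 alone had an unadjusted p under 0.05 (0.0245, limma). Cell cycle genes had 10 of 34 members above (29.4%) and none below, with a median of 0.12, from Mcm6 (0.08) to Ccnd1 (0.31). Of 21 glucocorticoid and cAMP response genes 5 were above, among them Sgk1 (0.40) and Ppargc1a (0.39), and of 22 imprinted genes outside the domain 3 were above, Peg10 (0.62), Zdbf2 (0.54) and Snrpn (0.22). Under other processing settings Peg10 went down to -0.02, Zdbf2 to -0.17 and Snrpn to 0.13.

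**Figure D4:**
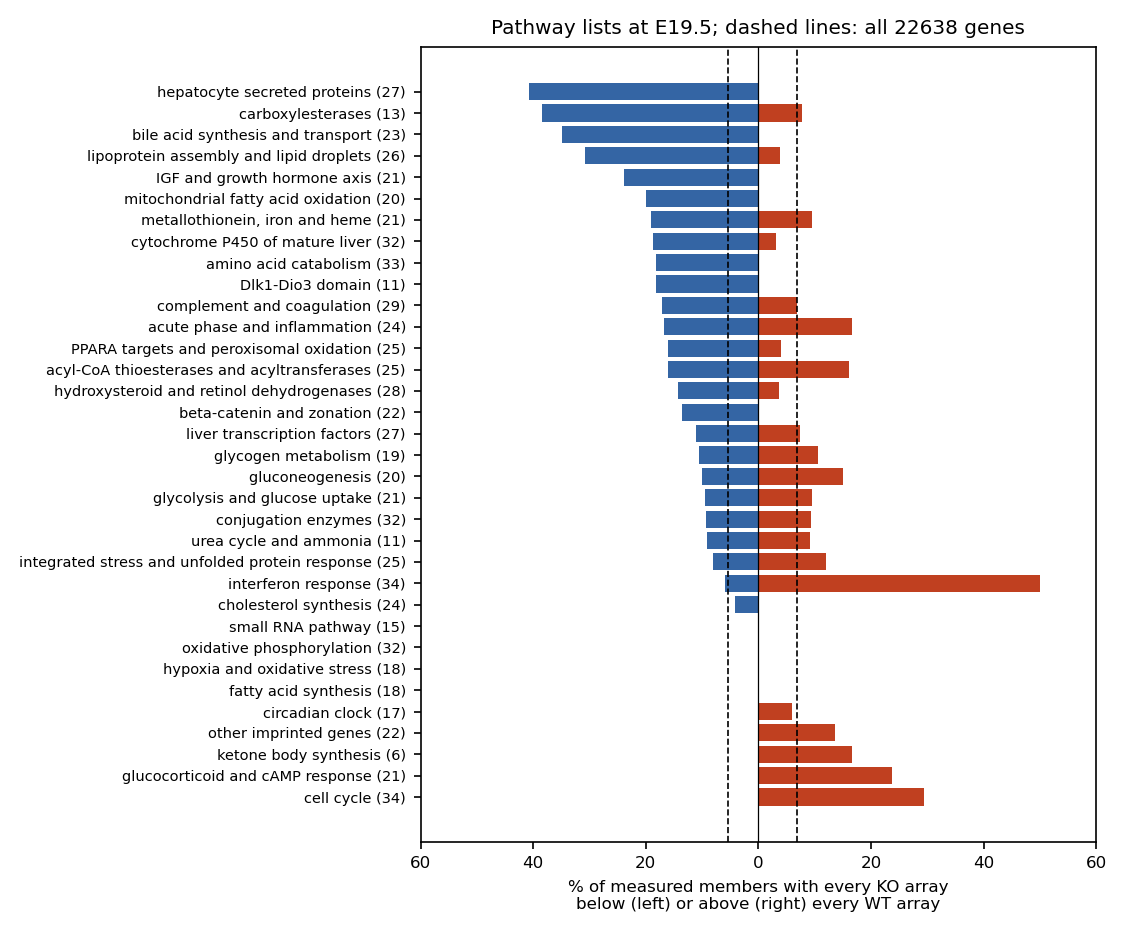
Percent of the measured members of each pathway list (number in brackets) with every KO array below (left, blue) or above (right, red) every WT array at E19.5. Dashed lines give the shares over all genes, 5.34% below and 6.83% above: secreted proteins (40.7%) and carboxylesterases (38.5%) reach farthest to the left and interferon response genes (50%) farthest to the right.

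Plasma protein genes had lower values in KO, mostly where the signal was strongest. Of 27 measured secreted proteins of hepatocytes, 11 were below (40.7%) and none above, and the same number had an unadjusted p under 0.05, with a median of -0.22. Albumin (Alb) read 10.41, 10.51 and 10.52 in WT and 10.17, 10.17 and 10.14 in KO. The arrays of each group were close together and the groups did not overlap, and the difference of -0.32 did not pass (adjusted p = 0.991). Transferrin (Trf) differed by -0.37 without overlap and did not pass either (adjusted p = 0.991). Among the 42 genes of the array with a mean log2 signal of 18 or more, the median difference was -0.30 and 66.7% had an unadjusted p under 0.05 with lower signal in KO. Their unscaled signal differed by 0.11, against 0.39 to 0.45 in the bins of dimmer genes, and the dimmer bins had median scaled differences from -0.02 to 0.04.

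Of the secreted proteins 10 were in that brightest bin and 9 of them had an unadjusted p under 0.05. The other 17 had a median of -0.04, with 2 such members. With quantile normalization the median of the whole list was -0.01. Whether array brightness accounts for the plasma protein values was not tested. The enzymes that passed had mean log2 signals of 14.1 for Cyp2e1, 8.51 for Hsd17b6 and 8.49 for Acnat2. Brightness did not overlap between the KO and WT arrays, so its part in the enzyme values cannot be told apart from genotype. With array brightness as a covariate in limma, Cyp2e1 passed (-2.40, adjusted p = 0.011). Hsd17b6 (-2.15, adjusted p = 0.131) and Acnat2 (-1.48, adjusted p = 0.516) then missed the threshold.

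**Figure D5:**
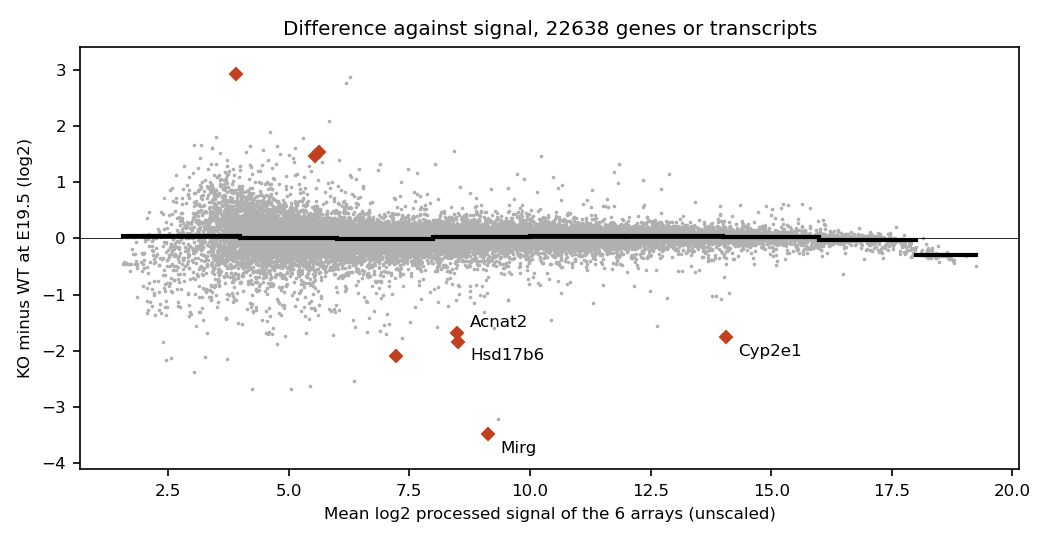
Difference between KO and WT fetal liver (log2) against the mean unscaled log2 signal of the 6 arrays for all 22638 genes or transcripts, with the median of each signal bin as a black line and the 8 passing transcripts as red diamonds. The median line stays near 0 up to a signal of 18 and lies at -0.30 beyond it, and the falls of Mirg, Cyp2e1, Hsd17b6 and Acnat2 are at lower signals.

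The tissue matched its label on all arrays: the hepatocyte genes Alb, Ttr and Apoa1, the hepatoblast gene Afp and the erythroid gene Hba-a1 were above background on all 6. Summed hepatocyte markers were at 12.63 to 12.72 in WT and 12.29 to 12.49 in KO, with 5 of the 10 markers in the brightest bin. Summed erythroid markers were at 11.99 to 12.15 in WT and 11.76 to 11.84 in KO, a sum that globin genes of the brightest bin carry. By gene, 22 of 28 erythroid markers had positive differences, with a median of 0.07. The part of cell content in the lower enzyme values was not tested. Of 20 granulocyte and myeloid precursor markers 2 were above and none below, led by Prg2 (1.18), with a median of 0.20. Of 14 macrophage markers 4 were above (28.6%), Marco among them, and none below, with a median of 0.06. Their summed level was 8.11 to 8.24 in WT and 8.26 to 8.48 in KO, and its part in the interferon response values was not tested. Skeletal muscle markers were the list with the largest shift: their array medians were -1.83, -3.17 and -2.42 in WT and -3.09, -3.40 and -3.56 in KO, with summed levels of 3.89 to 4.32 and 3.54 to 3.83. The muscle actin gene Acta1 lay between -2.23 and 0.51 in WT and between -2.76 and -2.19 in KO. WT_E19 1 had the highest list median, 3 of 18 members were below without overlap and none passed. The list median of WT_E19 3 (-2.42) also lay above every KO array. Without WT_E19 1, Cyp2e1 and Hsd17b6 passed and Acnat2 missed the threshold. The part of muscle content in the enzyme values was not tested.

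The Y-linked gene Ddx3y and Xist placed 2 females and 1 male among the WT fetuses and 1 female and 2 males among the KO fetuses. With sex as a block, an alternative added after the values were seen, all 8 transcripts passed, among 11 in all.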

How the data were processed

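The scanner files deposited by the authors hold intensity values from Agilent Feature Extraction 10.10.1.1, already corrected for background, per the file headers. Other deposited columns mark each spot with 0 or 1 as above background, saturated or an outlier. A series table of log2 values, made by the authors with Feature Extraction and limma per the submitters' processing notes, served as an alternative.

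Each array's processed intensity was taken as log2 and scaled to its 75th percentile among 59305 non-control spots, with outlier spots (146 to 193 per fetal array) set to missing and none saturated. Of 55681 probes, 34408 were well above background on 3 or more arrays of some group and were kept, and each gene name was represented by its brightest probe. Between 53.07% and 61.11% of probes were above background per fetal array, and precision is limited by how few arrays there are. RefSeq accessions matched 15335 of 22638 names, and 3304 are transcripts named by position. Probe positions are mm9, and no exon annotation on mm9 was used here.

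Files were read with version 1.17.8 of data.table, and limma 3.58.1 (R 4.3.3) fitted 4 group means over 15 arrays (11 residual degrees of freedom, 2.5 prior). ± is the SD between arrays. Where all arrays of a group were below background, the fold was taken against each array's dimmest value above background or the probe's own, whichever was higher. For the transcripts given here this equals the measured fold and is not a lower limit. The labels number the replicates without naming fetuses or litters, so p-values measure the spread between these samples, which may be technical. Whether the replicate numbers pair the samples is not settled by so few arrays. Same-numbered KO and WT arrays deviated from their group means with correlations of 0.21, 0.01 and 0.14. The correlations of differently numbered arrays lay between -0.29 and 0.16. Named genes were those that passed and, next, the 12 rises and 12 falls with the smallest p among named genes whose groups did not overlap; 1 of the falls is not reported here. List members named in the text were those separated between the groups or with the smallest p-values. Members and lists were chosen with earlier results of these data known. Scripts were tested on simulated data.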

Additional observations from a re-analysis of the deposited data

Results flagged for a closer look

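For Mirg, the level on KO_P0 5, one of the newborn arrays, was -0.41, while the other 4 KO_P0 arrays lay between -1.57 and -1.34. The gap to the nearest array was 0.801 of the range of the group, and Mirg on this array was still below every WT array of either age.

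LOC100505009, one of the immunoglobulin interval transcripts that rose at E19.5, had a level of -4.43 on KO_P0 4, while the other 4 KO_P0 arrays lay between -3.79 and -3.56. That gap was 0.727 of the range. Both values come from newborn arrays, and no group of 3 fetal arrays was examined in this way. Chance gives such a gap in about 1 in 20 groups.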

How the results depend on the processing

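Mirg kept its direction under all 21 alternatives run and passed in 19, with differences from -3.65 to -2.84. With slide 2 arrays only it was -3.50 (adjusted p = 0.432) and with the brightness covariate -2.84 (adjusted p = 0.0504). The 8 passing genes became 5 with the 6 fetal arrays only, 0 with slide 2 only (where 1311 had an unadjusted p under 0.05 in limma), 4 with the replicate block, 2 with the brightness covariate, 15 with normexp and quantile normalization and 13 in the deposited table. The cause was not tested. Leaving out 1 array gave from 3 (without KO_E19 3) to 10 (without KO_E19 2), with 4 without KO_E19 1 and 5 without WT_E19 2. Of the 4 genes that passed in the paired fit with the replicate block, Mirg was the only one shared with the 8. All 8 kept their direction in every alternative that gave a value. Cyp2e1 and Hsd17b6 each passed in 16 of 21, Acnat2 and LOC100505009 in 10, ENSMUST00000103538 in 18 and ENSMUST00000103515 in 11 of 20. Normexp with the 75th percentile turned the 251 higher and 377 lower genes with an unadjusted p under 0.05 into 147 and 1741. With the brightness covariate the list medians went to 0.85 for interferon response genes and -0.55 for P450 genes, and with normexp and quantile normalization to -0.32 for skeletal muscle. Dim transcripts such as those of the immunoglobulin interval had little signal over background, which limits their folds.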

Other observations

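Vil1, a cytoskeletal gene of brush borders and bile canaliculi, differed by -0.76 in fetal KO liver without overlap (limma, unadjusted p = 0.00536) and passed at P0 (-0.69, adjusted p = 0.0429). Slco1b2, an importer of organic anions, was below without overlap at E19.5 (-0.41) and passed at P0 (-1.64, adjusted p = 0.00193). Dpt, a matrix protein gene, differed by -2.37 at E19.5 (limma, unadjusted p = 0.00836). These genes were chosen after their values were seen.

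The noncoding gene 3110009F21Rik in the Dlk1-Dio3 domain stood at 0.02 on WT_E19 2, while the other fetal arrays lay between -5.15 and -4.42.

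On chromosome 12 from 100 to 110 Mb, on the side of the deleted cluster away from the immunoglobulin interval, 7 of 113 genes had an unadjusted p under 0.05 with lower signal in KO and 1 with higher signal (7.08% in all, against 2.77% of all genes). The share was 11.8% of 17 genes from 40 to 50 Mb of the same chromosome. Those 7 include the Serpina genes Serpina1a (-0.32), Serpina1c (-0.44), Serpina1e (-0.40), Serpina3c (-1.15) and Serpina3m (-1.07), which are neighbouring paralogs whose probes may read more than 1 transcript. The first 3 are among the genes with a mean log2 signal of 18 or more, of which 66.7% had such lower values, and with quantile normalization Serpina1c was at -0.03.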
